A study of Mus musculus with 46 samples.

Results

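The genes described here are 9 genes of the pathway that shows peptides from inside the cell on MHC class I molecules: the immunoproteasome subunits Psmb8, Psmb9 and Psmb10, the peptide transporter and loading genes Tap1, Tap2 and Tapbp, the class I heavy chains H2-K1 and H2-D1, and Nlrc5, the transactivator of class I genes. They were taken by name from the deposited gene table, and all 9 of 9 symbols were among its 46264. The table covers 46 mouse libraries of bulk poly(A) RNA from a study of intravenous immunoglobulin (IVIG, pooled antibodies given into a vein) in mice with mucous membrane pemphigoid, a blistering disease driven here by antibodies against laminin 332. An experiment labelled Ics had 4 libraries titled unstimulated (0 h), 4 at 3 h and 4 at 6 h. The labels do not expand Ics, do not name its cells or the stimulus, and carry m numbers 1 to 4, printed here as libraries 1 to 4. Titles and the condition field give the same times, but the treatment field of the Ics libraries does not: it reads IVIG at 0 h and holds PBS or a time at 3 and 6 h. Groups follow the titles, and if the treatment entries were right, time and treatment could not be told apart. The other 34 libraries were labelled blood (5 given IVIG, 5 given phosphate-buffered saline, PBS), neutrophil (5 and 5), monocyte (3 and 5) and skin (3 and 3). The protocol speaks of bone marrow derived neutrophils and monocytes or whole blood, and strain, age and any pooling of animals are not given in the sources used here. The labels do not state whether each library is a separate animal or culture. P-values therefore measure only the spread between these libraries, and that spread may be technical.

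Cells cut proteins in the proteasome, a barrel whose catalytic subunits exist in a constitutive set (Psmb5, Psmb6 and Psmb7) and an immunoproteasome set (Psmb8, Psmb9 and Psmb10) that replaces it subunit by subunit. The transporter made of Tap1 and Tap2 carries the resulting peptides into the endoplasmic reticulum, where tapasin (Tapbp) helps load them onto a class I heavy chain paired with beta-2 microglobulin. Interferons are the classic inducers of the whole pathway, and neutrophils and monocytes, like nearly all nucleated cells, carry class I on their surface.

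On the mouse assembly GRCm38 with GENCODE vM21 genes, 7 of the 9 genes lie in the major histocompatibility complex on chromosome 17, in the order Tapbp (33915899 to 33929292, plus strand), H2-K1 (33996017 to 34000347, minus), Psmb9 (34181987 to 34187764, minus), Tap1 (34187553 to 34197225, plus), Psmb8 (34197721 to 34201454, plus), Tap2 (34203527 to 34216321, plus) and H2-D1 (35262730 to 35267499, plus). Nlrc5 (94434356 to 94527272, plus) and Psmb10 (105935735 to 105938444, minus) lie on chromosome 8. Psmb9 and Tap1 run in opposite directions and by these GENCODE bounds overlap by 212 bases at their starts. Psmb8 follows Tap1 after a gap of 495 bases and Tap2 follows Psmb8 after 2072 bases.

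Promoter windows from RefSeq (GRCm38.p6, 250 bases before to 50 after the annotated start) were at hand for 7 of the 9 genes. Tap2 and Nlrc5 had no entry. Printed here, 5′ to 3′ on the gene's own strand, are the start region that Tap1 shares with Psmb9, the window of Psmb8, whose level went the other way, and the windows of both heavy chains. Capitals mark matches to 4 motifs searched on both strands: GAAANNGAAA (core of the interferon-stimulated response element), TTCNNNGAA (gamma-activated site), GGGNNTTNCC (kB site of NF-kB) and TGACG (core of the site of CREB and ATF factors, as in the X2 box of class I promoters).
Tap1, chr17:34187306-34187605, plus strand: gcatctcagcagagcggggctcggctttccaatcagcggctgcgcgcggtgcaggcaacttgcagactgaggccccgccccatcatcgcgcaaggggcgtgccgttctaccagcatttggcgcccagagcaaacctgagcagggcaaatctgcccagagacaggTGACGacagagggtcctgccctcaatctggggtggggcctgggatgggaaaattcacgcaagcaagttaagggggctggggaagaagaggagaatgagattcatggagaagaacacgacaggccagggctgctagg
Psmb8, chr17:34197945-34198244, plus strand: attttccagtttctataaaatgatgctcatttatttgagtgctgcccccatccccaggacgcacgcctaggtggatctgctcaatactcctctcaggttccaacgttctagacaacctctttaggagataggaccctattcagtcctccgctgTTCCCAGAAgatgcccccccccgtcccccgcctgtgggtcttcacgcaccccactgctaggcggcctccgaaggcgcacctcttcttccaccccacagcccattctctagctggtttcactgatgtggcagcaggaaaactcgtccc
H2-K1, chr17:34000298-34000597, minus strand: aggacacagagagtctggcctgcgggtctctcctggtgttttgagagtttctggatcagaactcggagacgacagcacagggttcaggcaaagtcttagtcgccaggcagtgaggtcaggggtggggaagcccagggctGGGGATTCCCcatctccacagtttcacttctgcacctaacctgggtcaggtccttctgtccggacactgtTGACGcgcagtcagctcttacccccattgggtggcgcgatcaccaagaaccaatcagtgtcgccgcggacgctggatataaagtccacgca
H2-D1, chr17:35262844-35263143, plus strand: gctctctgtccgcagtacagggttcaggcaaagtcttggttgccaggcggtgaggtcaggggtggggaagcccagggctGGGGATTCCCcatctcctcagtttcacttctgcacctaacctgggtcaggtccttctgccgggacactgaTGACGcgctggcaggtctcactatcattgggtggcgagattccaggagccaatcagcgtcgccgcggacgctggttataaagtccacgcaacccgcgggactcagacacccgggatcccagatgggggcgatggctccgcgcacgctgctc
The Psmb9 window (chr17:34187281-34187580, minus strand) is the complement of the Tap1 window over 275 bases. Both hold the same TGACG match, 86 bases before the Tap1 start. The RefSeq starts are 226 bases apart (34187330 for Psmb9 and 34187556 for Tap1). By those starts the genes do not overlap, unlike by the GENCODE bounds above. The Psmb8 window holds TTCCCAGAA 97 bases before the start. Both heavy chain windows hold GGGGATTCCC followed by TGACG, with 70 bases from the first base of one to the first base of the other, at 111 and 41 bases before the start in H2-K1 and 171 and 101 in H2-D1. Without gaps the 2 windows, set on that match, were the same at 176 of 240 bases (73.3%). The windows of Psmb10 and Tapbp held 0 of the 4 motifs, and the response element core was in 0 of the 7 windows. Of all 27025 promoter windows, 3.49% hold GAAANNGAAA, 8.47% TTCNNNGAA, 4.71% GGGNNTTNCC and 21.0% TGACG. A match is a string of letters and not a shown binding site. Only these exact patterns were counted, so a window with 0 matches can still hold a looser form of a site. The RefSeq windows of Psmb8, Psmb9, Tapbp (chr17:33919228-33919527) and H2-D1 lie inside the GENCODE bounds given above. For those genes the sequence before the GENCODE start was not searched.

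Levels are normalized CPM, counts scaled to the size of each library after TMM factors, which correct library totals for differences in composition. Values of cell type markers are CPM of library totals, without TMM factors. Estimated counts totalled 24827628 to 29502785 in the Ics libraries and 18965431 to 43176537 in all 46. A gene is said to have risen or fallen where edgeR's quasi-likelihood test gave p under 0.05 after Benjamini-Hochberg adjustment across every gene in the fit, and ± is an SD for levels and a standard error (SE) for log2 changes. The Ics libraries were rich in neutrophil transcripts: S100a8, S100a9 and Ly6g summed to medians of 44154 CPM at 0 h, 34478 at 3 h and 31553 at 6 h, while 5 monocyte and macrophage markers summed to 15121, 9416 and 8608 CPM. Lyz2 made up nearly all of that second sum (medians of 14313, 8480 and 7694 CPM), and its other members were split. Ly6c2 (614, 385 and 249.7 CPM) and Ccr2 (6.08, 1.29 and 0.983) were lower with time, whereas Csf1r (152, 409 and 498) and Adgre1 (28.2, 144 and 182) were higher, with no overlap between 0 h and the later times. Krt5 and Krt14 were at 0 in all 12, and T and NK cell markers summed to between 4.57 and 14.6 CPM. The part of these marker shifts in the results below was not tested. In bulk RNA, fewer cells of a type and less RNA per cell cannot be told apart.

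In the Ics libraries the 9 genes moved in both directions. All 3 immunoproteasome subunits fell after 0 h while Tap1, Tapbp, both heavy chains and Nlrc5 rose. All 9 genes passed the test at 3 h against 0 h (5 rose, 4 fell), where 54.4% of the 14996 genes tested passed (26.9% rose and 27.5% fell), and 8 of 9 passed at 6 h against 0 h (5 rose, 3 fell), where 60.0% did (29.6% rose and 30.4% fell). So many genes passed in these comparisons that the counts alone set the group apart little. The median log2 change of the 9 was 0.39 at 3 h and 0.59 at 6 h, beside -0.06 for all genes at both times. Both comparisons share the 0 h libraries. The 2 groups did not overlap for 8 of the 9 genes at 3 h (49.7% of all genes) and for 8 at 6 h (55.3%), and Tap2 was the exception at both times. When library totals alone scaled the counts, the median of all genes was -0.30 at 3 h and -0.22 at 6 h. All 17 of these calls kept their direction and passed there too, the smallest being Tap1 (0.17) and H2-D1 (0.14) at 3 h. Tap2 at 6 h, which is not one of the 17, passed there as a fall (-0.17, adjusted p = 0.0326).

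**Figure D1:**
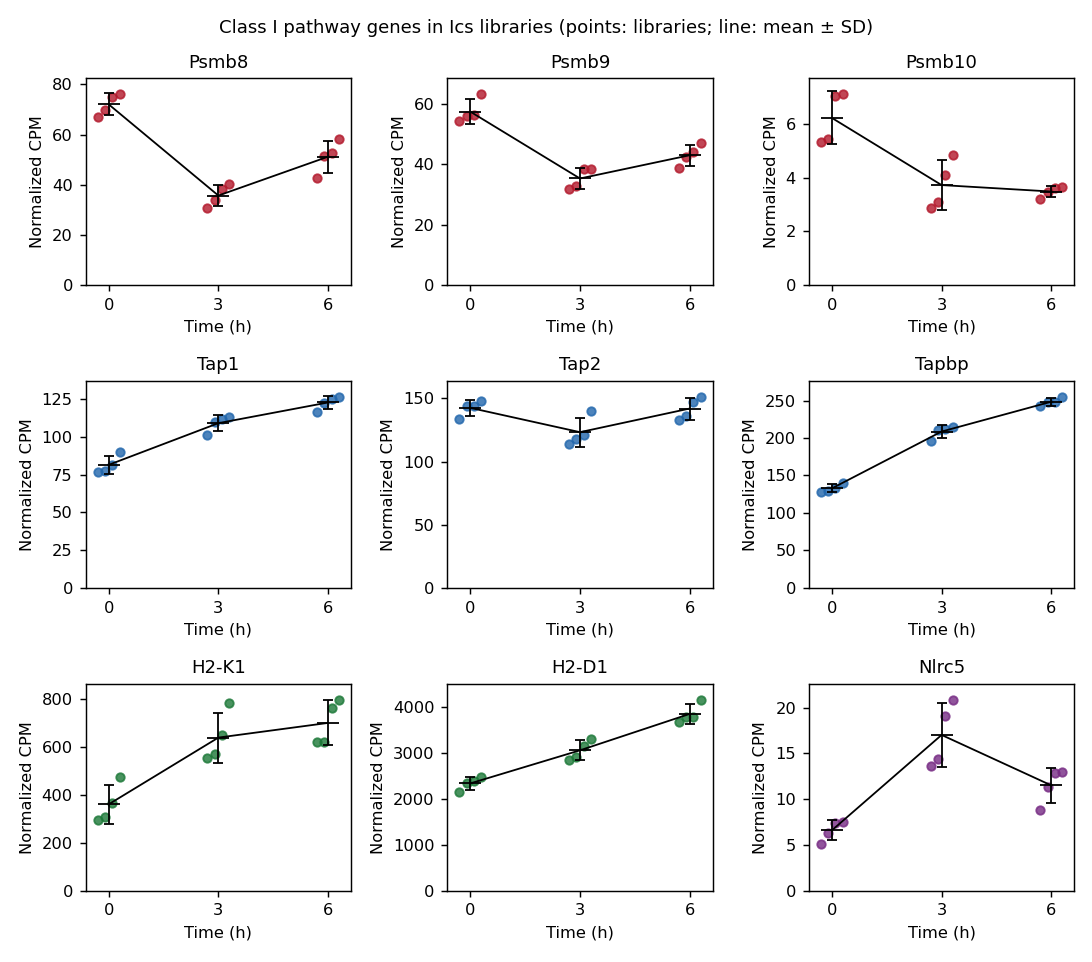
Normalized CPM (vertical axis, from 0) of each of the 9 genes against time in h (horizontal axis) in the 12 Ics libraries; points are libraries, and the black line joins the means with SD bars (n = 4 a time). Psmb8, Psmb9 and Psmb10 sit lower at 3 and 6 h than at 0 h, Tap1, Tapbp, H2-K1, H2-D1 and Nlrc5 sit higher, and Tap2 overlaps between times.

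Psmb8 codes LMP7, the immunoproteasome subunit that takes the place of Psmb5 and cuts after hydrophobic residues. Its 4 libraries held 75.0, 76.3, 67.1 and 70.0 CPM at 0 h, 33.8, 38.1, 30.6 and 40.1 at 3 h, and 51.6, 42.6, 52.5 and 58.1 at 6 h. Every 3 h library was far below every 0 h library, and every 6 h library lay between the other 2 times. The log2 change was -1.01 ± 0.0985 at 3 h (adjusted p = 6.18e-07), -0.49 ± 0.0969 at 6 h against 0 h (adjusted p = 0.000500) and 0.52 from 3 to 6 h (adjusted p = 0.000699). Psmb9 (LMP2), which replaces Psmb6, held 56.0, 63.4, 56.3 and 54.4 CPM at 0 h, 32.8, 38.4, 31.7 and 38.5 at 3 h, and 42.3, 44.2, 38.6 and 47.03 at 6 h. It followed the same course as Psmb8, low at 3 h and part of the way back at 6 h, with no overlap with 0 h at either time. Its changes were -0.70 ± 0.0839 at 3 h (adjusted p = 5.28e-06) and -0.42 ± 0.0831 at 6 h (adjusted p = 0.000561).

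Psmb10 (MECL-1), the partner that replaces Psmb7, was scarce. It held 7.13, 7.03, 5.32 and 5.44 CPM at 0 h, 4.08, 4.85, 3.11 and 2.86 at 3 h, and 3.67, 3.47, 3.19 and 3.61 at 6 h, from 72 to 226 counts a library. The 3 h and 6 h libraries all lay below those at 0 h, and the 3 h and 6 h libraries overlapped. It fell by 0.74 ± 0.174 on the log2 scale at 3 h (adjusted p = 0.00228) and by 0.84 ± 0.174 at 6 h (adjusted p = 0.000802), and the 6 h against 3 h difference of -0.10 did not pass (adjusted p = 0.700). The median change of the 3 subunits was -0.74 at 3 h and -0.49 at 6 h.

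The transport and loading genes did not move as 1 block. Tap1, 1 chain of the peptide pump, held 76.5, 90.2, 77.7 and 81.3 CPM at 0 h, 109.5, 112, 113 and 101 at 3 h, and 117, 123, 125 and 127 at 6 h. Every later library was above every 0 h library, with changes of 0.42 ± 0.0600 at 3 h (adjusted p = 3.16e-05) and 0.59 ± 0.0600 at 6 h (adjusted p = 8.77e-07). Tap1 thus went up while its head-to-head neighbour Psmb9 went down, and both start within the shared window printed above. Tap2, the other chain, held 144, 148, 134 and 144 CPM at 0 h, 114, 118, 140.0 and 121 at 3 h, and 133, 136, 147 and 151 at 6 h. The times overlapped, and library 3 at 3 h lay among the 0 h values. Tap2 fell by 0.21 ± 0.0674 at 3 h (adjusted p = 0.0165) and stood at -0.01 ± 0.0672 from 0 h at 6 h (adjusted p = 0.951), where library totals alone gave -0.17 (adjusted p = 0.0326). The fall at 3 h did not pass without library 2 at 3 h (-0.18, adjusted p = 0.0542). Tapbp, which codes the loading chaperone tapasin, held 128, 139.7, 134 and 129.8 CPM at 0 h, 212, 211, 215 and 196 at 3 h, and 248, 248, 255 and 243 at 6 h. The 3 times formed 3 separate steps with no overlap, by 0.65 ± 0.0471 at 3 h (adjusted p = 2.57e-08), 0.90 ± 0.0472 at 6 h against 0 h (adjusted p = 8.49e-10) and 0.25 from 3 to 6 h (adjusted p = 0.000588).

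The heavy chains are the part of the class I molecule that holds the peptide. H2-K1 held 295, 473, 366 and 307 CPM at 0 h, 554, 782, 650.2 and 569.7 at 3 h, and 620.1, 798, 764 and 619.5 at 6 h. Library 2 was the highest at each time, and every later library was above every 0 h library. H2-K1 rose by 0.83 ± 0.148 at 3 h (adjusted p = 0.000259) and 0.96 ± 0.148 at 6 h (adjusted p = 6.03e-05). H2-D1 held 2150.3, 2480.2, 2385 and 2340.1 CPM at 0 h, 2917, 3317, 2852 and 3156 at 3 h, and 3786, 3687, 4167 and 3778 at 6 h, so that the 3 times were again separate. It rose by 0.39 ± 0.0619 at 3 h (adjusted p = 9.20e-05), by 0.72 ± 0.0621 at 6 h (adjusted p = 1.57e-07) and by 0.33 from 3 to 6 h (adjusted p = 0.000602). H2-K1 did not pass from 3 to 6 h (0.13, adjusted p = 0.510). Their reads are hard to part: 11.1% of the 31-base words of the H2-K1 transcripts also occur in H2-D1, 13.8% of those of H2-D1 in H2-K1, and 77.2% and 73.1% of the words belong to no other gene. The split between the heavy chains, and the strain's own alleles, are therefore uncertain. Tap1 and Psmb9 share 3.26% and 4.79% of their words with each other.

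Nlrc5 codes the factor that is recruited to class I promoters and switches on heavy chain, Tap1, Psmb9 and beta-2 microglobulin genes. Nlrc5 held 7.35, 7.51, 6.35 and 5.15 CPM at 0 h, 14.4, 19.1, 20.9 and 13.6 at 3 h, and 13.0, 11.3, 12.9 and 8.82 at 6 h. All 8 later libraries were above all 4 at 0 h, and all 6 h libraries were below all 3 h libraries. It rose by 1.36 ± 0.171 at 3 h (adjusted p = 8.87e-06), the largest rise of the 9 genes, and stood 0.80 ± 0.171 above 0 h at 6 h (adjusted p = 0.000999). From 3 to 6 h it fell by 0.56 (adjusted p = 0.0146), a call that did not pass without library 3 at 3 h (-0.43, adjusted p = 0.0630).

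From 3 to 6 h, 7 of the 9 genes passed (6 rose, 1 fell), where 40.8% of all genes did (20.5% rose and 20.3% fell), and the groups did not overlap for 6 (37.1% of all genes). The median change was 0.20 beside -0.03 for all genes. Psmb8, Psmb9, Tap1, Tap2, Tapbp and H2-D1 rose, Nlrc5 fell, and Psmb10 and H2-K1 did not pass. The small rises of Tap1 (0.17, adjusted p = 0.0337) and Tap2 (0.20, adjusted p = 0.0259) each rested on single libraries. Tap1 did not pass without library 4 at 3 h, library 3 at 6 h or library 4 at 6 h (0.16 each, adjusted p = 0.0582, 0.0712 and 0.0791), nor Tap2 without library 2 at 3 h, library 3 at 6 h or library 4 at 6 h (0.18, 0.19 and 0.17, adjusted p = 0.0705, 0.0624 and 0.0751).

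**Figure D2:**
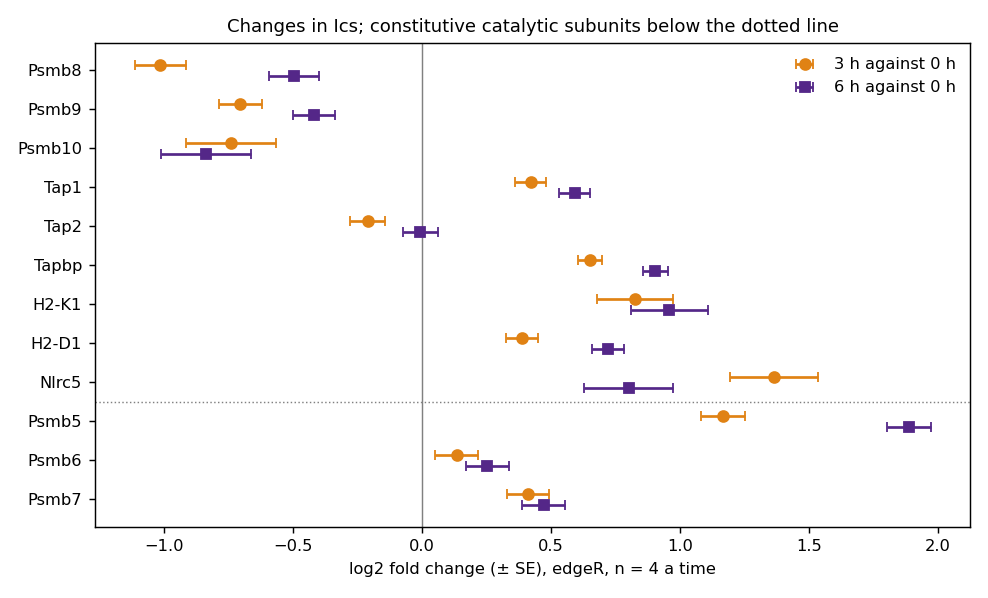
Log2 fold change against 0 h (horizontal axis, ± SE from edgeR, n = 4 a time) of the 9 genes and, below the dotted line, of the 3 constitutive catalytic subunits, with circles for 3 h and squares for 6 h. The immunoproteasome subunits lie left of 0 and Psmb5 lies furthest right, at 1.17 and 1.89.

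The constitutive catalytic subunits went the other way. Of the 3, 2 rose and 0 fell at 3 h, and 3 rose at 6 h. Psmb5 rose from 30.6 ± 1.18 CPM at 0 h to 68.7 ± 5.10 at 3 h and 113 ± 14.5 at 6 h, a log2 change of 1.17 ± 0.0845 (adjusted p = 2.62e-08) and 1.89 ± 0.0852 (adjusted p = 1.90e-10). Psmb7 rose by 0.41 and 0.47. Psmb6 was at 0.13 at 3 h (adjusted p = 0.184) and rose by 0.25 at 6 h (adjusted p = 0.0157). On library totals alone Psmb5 passed at both times, Psmb7 did not pass at 3 h (0.16, adjusted p = 0.104), and Psmb6 was at -0.11 and 0.09 and passed at neither.

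The ratio of each immunoproteasome subunit to the subunit it replaces needs no scaling between libraries, and was added after the values had been seen. The log2 ratio of Psmb8 to Psmb5 counts went from 1.24 at 0 h to -0.95 at 3 h and -1.14 at 6 h. Per length of the longest coding transcript, Psmb8 made up 56.3, 58.8, 55.3 and 55.8% of the pair at 0 h, 21.1, 21.8, 21.0 and 25.2% at 3 h, and 19.8, 18.7, 17.9 and 23.9% at 6 h. Psmb8 outweighed Psmb5 in every 0 h library and at most 25.2% in every later one. The Psmb9 share of its pair with Psmb6 went from 54.7 ± 1.75% to 40.4 ± 0.566% and 43.2 ± 3.47%, and the Psmb10 share of its pair with Psmb7 from 13.4 ± 1.77% to 6.49 ± 1.19% and 5.91 ± 0.521% (n = 4 libraries a time). For all 3 pairs the ratio was lower in every library at 3 h and at 6 h than in every library at 0 h, by 2.19, 0.84 and 1.17 at 3 h on the log2 scale and by 2.38, 0.67 and 1.30 at 6 h.

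Each of these 6 differences had an exact two-sided permutation p of 0.0286, the smallest that 4 against 4 libraries can give. It was 0.0429 after Benjamini-Hochberg adjustment over 9 tests. The permutations ignored the m numbers, by which libraries correlated across times. As the ratios were chosen with the values seen, these p-values add nothing to the lack of overlap itself. From 3 to 6 h no pair passed: the differences were -0.19, 0.16 and -0.13 (exact permutation p = 0.229, 0.286 and 0.543). The shares are of RNA and say nothing of the assembled protein.

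**Figure D3:**
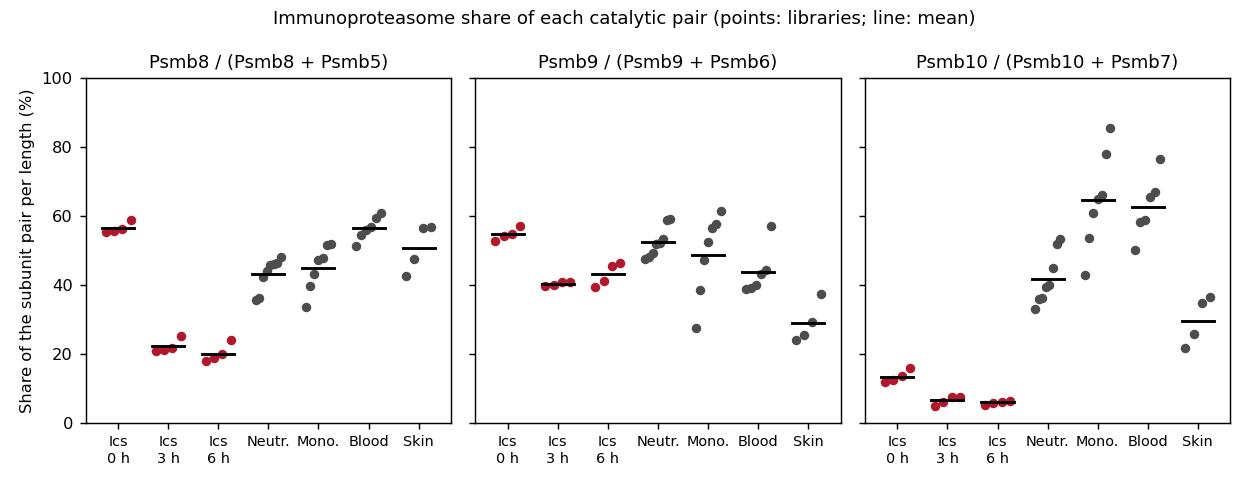
Share (%) of each catalytic pair, per transcript length, taken by the immunoproteasome subunit (vertical axis, 0 to 100) in the Ics libraries by time (red) and in the libraries whose markers matched their tissue label (grey); points are libraries and bars are means. In Ics the mean Psmb8 share is 56.5% at 0 h, 22.3% at 3 h and 20.1% at 6 h, and the Psmb10 share is 13.4% or less at every time.

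On the scale of CPM per kb of transcript, H2-D1 was the most abundant of the 9 at every Ics time (1113 ± 66.0 at 0 h, 1456 ± 102 at 3 h and 1834 ± 101 at 6 h) and H2-K1 came next (223 ± 50.4, 395 ± 64.4 and 432 ± 58.0). At 0 h, Tapbp (45.8), Psmb8 (44.3), Psmb9 (42.5) and Tap2 (41.4) followed, each overlapping the next in its range over libraries, then Tap1 (27.6), Psmb10 (4.75) and Nlrc5 (0.870). At 6 h the order had changed in the middle: Tapbp stood at 85.8, Tap1 (41.6) and Tap2 (41.3) overlapped, Psmb9 (31.8) and Psmb8 (31.4) overlapped below them, and Psmb10 (2.66) and Nlrc5 (1.52) were again the lowest.

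Other genes of the pathway were taken from lists chosen with earlier results of these data known, as the 9 were. Of 8 class I partners, 2 rose and 2 fell at 3 h and 4 rose and 2 fell at 6 h. B2m, the light chain of every class I molecule, rose by 0.50 ± 0.0821 and 0.66 ± 0.0823, from 1089 ± 60.6 CPM to 1545 ± 190 and 1715 ± 144. Sppl2a, an intramembrane protease listed with them, rose by 0.98 and 1.58, whereas calreticulin (Calr, -0.50 and -0.66) and its partner Pdia3 (-0.46 and -0.65), both of the loading complex, fell. So within the loading complex tapasin rose and both of these chaperones fell. The median of the 8 was 0.06 at 3 h and 0.09 at 6 h.

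Of 8 genes of proteasome activators and assembly, 3 rose and 1 fell at each time. Psme2, a subunit of the PA28 activator, rose by 1.19 and 1.14, Pomp, which helps build the barrel, by 0.62 and 0.61, and Psme4 by 0.32 and 0.24. Psme3 was at -0.09 and 0.13 (adjusted p = 0.252 and 0.0865), and its call depended on the scaling: library totals alone gave a fall at 3 h (-0.34, adjusted p = 0.000761), and DESeq2 and RLE factors a rise at 6 h (0.16 each, adjusted p = 0.0261 and 0.0388). Psme3 at 6 h also passed without library 3 or 4 at 3 h or library 3 at 6 h (0.16, 0.16 and 0.17). The rise of Psme4 at 6 h did not pass without library 1 or 2 at 0 h or library 4 at 6 h (0.21, 0.22 and 0.20, adjusted p = 0.0512, 0.0511 and 0.0528). Of 11 other subunits of the barrel, 5 rose and 0 fell at 3 h and 7 rose and 0 fell at 6 h, among them Psma1 (0.38 and 0.46), Psma3 (0.39 and 0.68), Psma6 (0.43 and 0.32), Psmb2 (0.28 and 0.22) and Psma5 (0.31 and 0.84), with Psmb1 at 0.10 at 3 h (adjusted p = 0.256) and up by 0.35 at 6 h. The medians were 0.06 and 0.19 for the first list and 0.21 and 0.27 for the second, beside -0.06 for all genes. None of the constitutive barrel subunits fell past the threshold at either time. On library totals alone Psma6 was the only one of the 5 named at 3 h that passed there (0.19, adjusted p = 0.0337), Psmb1 stood at -0.15, and Psme4 passed at neither time (0.07 and 0.08). At 6 h Psma6 (0.16, adjusted p = 0.0633) and Psmb2 (0.06, adjusted p = 0.590) did not pass on totals alone. The rise of Psmb2 at 6 h also did not pass without library 2, 3 or 4 at 0 h or library 1, 3 or 4 at 6 h (0.18 to 0.23, adjusted p = 0.0516 to 0.0971), nor did that of Psma5 at 3 h without library 2 or 3 at 0 h or library 4 at 3 h (0.27, 0.26 and 0.21, adjusted p = 0.0816, 0.0925 and 0.118).

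Among 12 tested genes of other class I heavy chains, 3 rose and 5 fell at 3 h, and 6 rose and 4 fell at 6 h. H2-Q4 rose by 1.09 and 1.24. H2-T23, the mouse Qa-1 chain, fell by 0.46 at 3 h (265 ± 16.8 to 193 ± 11.3 CPM) and rose by 0.44 at 6 h (359 ± 26.2 CPM). H2-T24 was at -1.43 and 0.24, H2-Q10 at -0.37 and -0.90, and Mr1, which presents vitamin B metabolites, at -0.79 and -1.07, all past the threshold. On library totals alone H2-T24 at 6 h did not pass (0.08, adjusted p = 0.313). These genes are close relatives of one another, and how their reads were divided is uncertain.

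Of 16 tested regulators of class I transcription, 7 rose and 7 fell at 3 h and 4 rose and 5 fell at 6 h. The NF-kB genes Nfkb1 (1.80 and 0.98) and Rela (0.92 and 0.93) rose at both times. Irf1, an inducer of Nlrc5 and Psmb9, rose by 0.92 at 3 h and fell by 0.29 at 6 h. Atf1 rose by 0.32 and 0.43, and on library totals alone did not pass at 3 h (0.07, adjusted p = 0.348). Of 10 tested interferon receptor and signalling genes, 7 rose and 1 fell at 3 h and 7 rose and 2 fell at 6 h: the type I receptor chain Ifnar1 rose by 1.86 and 1.58, the type II receptor chain Ifngr2 by 1.66 and 1.23, and the kinases Jak2 by 2.08 and 1.23 and Tyk2 by 1.503 and 2.16. The medians were 0.02 and 0.07 for the regulators and 0.59 and 0.69 for the receptors and signalling.

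**Figure D4:**
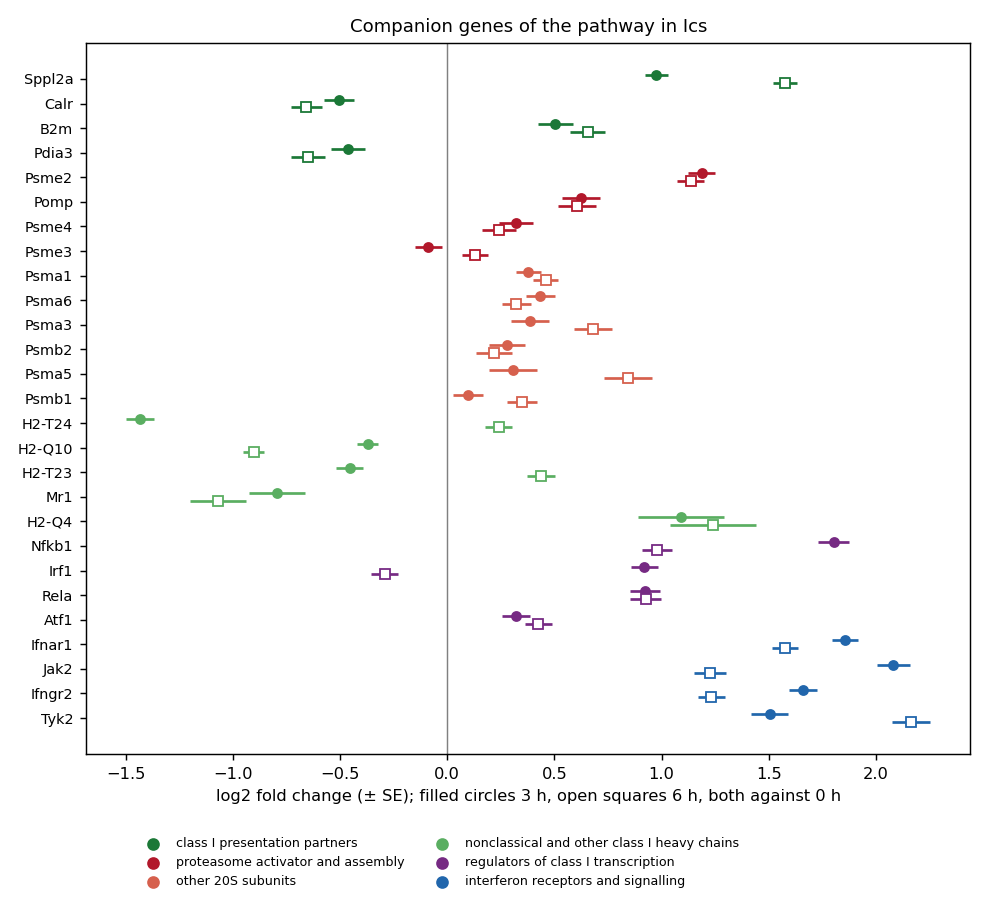
Log2 fold change against 0 h (horizontal axis, ± SE from edgeR, n = 4 a time) of the pathway's other genes named in the text, coloured by list, with filled circles for 3 h and open squares for 6 h. Nfkb1, Ifnar1, Ifngr2, Jak2 and Tyk2 lie to the right at both times, and Mr1, H2-Q10, Calr and Pdia3 to the left.

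As a description over the 12 Ics libraries, which share the time course, the genes whose log2(CPM + 0.5) followed a member most closely were sought by Pearson's r. For Nlrc5 they were Gm31544 (r = 0.976), Niban3 (0.966), Rasgef1b (0.966), Hbs1l (0.966) and Sms (0.964). Psmb8 was followed by the actin-binding gene Pfn1 (0.979), Rad51d (0.975), Cited2 (0.973), Zfp830 (0.973) and the interferon-inducible GTPase gene Igtp (0.972), which went from 20.3 to 5.85 and 9.70 CPM. H2-K1 was followed by H2-Q4 (0.991), Snord89 (0.970), H2-Q5 (0.969), B2m (0.957) and Mturn (0.953). Of the 31-base words of H2-K1, 5.73% occur in H2-Q4 and 4.98% in H2-Q5, so the likeness to those heavy chains can include shared reads.

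For the other tissues the labels were first checked against marker genes. A library was classed as blood where haemoglobin genes held at least 10% of its counts, otherwise as skin where Krt5 and Krt14 reached 100 CPM, otherwise as neutrophil where S100a8 and S100a9 reached 10000 CPM, and otherwise as monocyte. The class matched the label in 25 of 34 libraries: 8 of 10 neutrophil, 7 of 8 monocyte, 6 of 10 blood and 4 of 6 skin libraries. The other 9 were left out of the tissue comparisons and none was given another label. The monocyte class is defined only by lacking the blood, skin and neutrophil marks, and its 5 monocyte and macrophage markers summed to 1971 to 21079 CPM (median 7831). That sum does not mark the class, since it was 9888 to 17449 CPM (median 15037) in the neutrophil libraries. Monocyte PBS library 3 stood apart from the other monocyte libraries used. Its TMM factor was 0.207 (the others 0.666 to 1.40), and 8984 genes had 5 counts or more (the others 11002 to 16378). It was kept, so the spread given for monocytes includes it. Putting the deposited names in another order, as their descriptions sort, would make 34 of 34 match, would move 29 names and would change the treatment of 22 libraries. Names were kept as deposited. IVIG and PBS libraries of a tissue were pooled into 1 group, without haemoglobin genes. Those genes held 89.2 to 93.9% of the counts of the 6 blood libraries. Without them 2.27e+06 to 3.45e+06 counts entered the fit for a blood library, beside 1.88e+07 or more in the other tissues. Blood levels below are thus shares of the RNA that is not haemoglobin.

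With haemoglobin left out, Nlrc5 in blood lay wholly above, and Psmb8 in blood wholly below, the other 3 tissues. H2-K1 in blood and skin lay wholly above neutrophils and monocytes. Nlrc5 ranged from 52.4 to 129 CPM in blood (median 79.2), against 7.73 to 21.4 (15.3) in neutrophils, 0 to 30.3 (19.6) in monocytes and 15.1 to 35.1 (21.4) in skin. The value of 0 was that of monocyte PBS library 3. Every blood library was above every library of the other tissues, and the other tissues overlapped. With haemoglobin counted and no TMM factors, blood instead had the lowest Nlrc5 median. It was 6.55 CPM, beside 15.7 in neutrophils, 20.2 in monocytes and 29.0 in skin. Blood stood 2.49 ± 0.494 above neutrophils on the log2 scale (adjusted p = 0.000146, n = 6 and 8 libraries) and 2.27 ± 0.514 above monocytes (adjusted p = 0.000695). Skin stood -1.88 ± 0.620 from blood (adjusted p = 0.0126).

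Blood also had the lowest immunoproteasome levels for Psmb8 and Psmb9. Psmb8 ranged from 48.04 to 113 CPM in blood (median 95.0), 122 to 200 (152) in neutrophils, 124 to 219 (144) in monocytes and 156 to 290 (191) in skin. Blood lay wholly below each of the other tissues, by -0.81 ± 0.197 against neutrophils (adjusted p = 0.00129) and -0.82 ± 0.202 against monocytes (adjusted p = 0.00156), and skin stood 1.22 ± 0.228 above blood (adjusted p = 8.18e-05). With RLE factors Psmb8 in blood against neutrophils did not pass (-0.42, adjusted p = 0.0551). Psmb9 ranged from 157 to 203 CPM in neutrophils (182), 46.8 to 263 (161) in monocytes, 42.96 to 59.9 (48.6) in blood and 49.2 to 136 (68.8) in skin. Neutrophils lay above all blood and skin libraries: blood stood -1.84 ± 0.283 from them (adjusted p = 5.13e-06) and skin -1.17 ± 0.317 (adjusted p = 0.00256). Blood and skin were also below monocytes (-1.60 ± 0.286, adjusted p = 4.89e-05, and -0.92 ± 0.318, adjusted p = 0.0171). Psmb10 was highest in monocytes, at 59.9 to 303 CPM (107), beside 45.1 to 86.6 (61.1) in neutrophils, 20.4 to 91.7 (58.7) in blood and 33.2 to 74.3 (40.2) in skin, with overlap between all tissues. Monocytes stood 1.09 ± 0.297 above neutrophils (adjusted p = 0.00727), and blood and skin stood -1.31 ± 0.330 and -1.55 ± 0.383 from monocytes (adjusted p = 0.00196 and 0.00135).

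Of the transport and loading genes, Tap2 differed most between tissues. Tap2 ranged from 191 to 266 CPM in neutrophils (230.1), 91.7 to 226 (113) in blood, 31.6 to 163 (93.5) in monocytes and 40.6 to 65.4 (56.6) in skin. Neutrophils lay above all monocyte and skin libraries, and monocytes stood -1.25 ± 0.247 (adjusted p = 0.000386) and skin -2.05 ± 0.316 (adjusted p = 4.16e-06) from them. Blood was -0.68 ± 0.256 from neutrophils (adjusted p = 0.0327), and skin was -1.37 ± 0.316 from blood (adjusted p = 0.000745) and -0.79 ± 0.301 from monocytes (adjusted p = 0.0286). Tap1 ranged from 138 to 211 CPM in neutrophils (153), 66.4 to 209 (148) in monocytes, 99.9 to 235 (139.8) in blood and 61.5 to 148 (88.5) in skin, and only skin against neutrophils passed (-0.75 ± 0.272, adjusted p = 0.0195). Tapbp ranged from 169.9 to 192 CPM in neutrophils (177), 65.3 to 192 (129) in monocytes, 87.5 to 255 (144) in blood and 105 to 176 (132) in skin, and no comparison of it passed. Tapbp did pass under some alternatives, higher in blood than in monocytes with DESeq2 and RLE factors (0.71 each, adjusted p = 0.00572 and 0.0114) and lower in monocytes than in neutrophils with voom (-0.51, adjusted p = 0.0367).

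The heavy chains ranked differently from tissue to tissue. H2-K1 ranged from 1426 to 3077 CPM in skin (2223), 1250.3 to 1966 (1660) in blood, 791 to 1233 (992) in neutrophils and 354 to 861 (656) in monocytes. Skin and blood overlapped, and all of their libraries were above all neutrophil and monocyte libraries: blood by 0.70 ± 0.205 (adjusted p = 0.00696) and 1.34 ± 0.214 (adjusted p = 1.06e-05), and skin by 1.16 ± 0.227 (adjusted p = 8.83e-05) and 1.81 ± 0.234 (adjusted p = 4.65e-07). Monocytes stood -0.65 ± 0.200 from neutrophils (adjusted p = 0.0172). With haemoglobin counted and no TMM factors, the H2-K1 median in blood was the lowest. It was 142 CPM, beside 1030 in neutrophils, 548 in monocytes and 3016 in skin. H2-D1 ranged from 2455 to 4311 CPM in skin (3358), 2664 to 3623 (3204) in neutrophils, 1413 to 2239 (1881) in blood and 811 to 1927 (1065) in monocytes. Skin and neutrophils overlapped and did not differ past the threshold (0.09 ± 0.240, adjusted p = 0.752, but 0.43 and 0.0474 with DESeq2), while both lay wholly above monocytes and blood. Monocytes stood -1.33 ± 0.209 from neutrophils (adjusted p = 2.55e-05), blood -0.75 ± 0.216 from neutrophils (adjusted p = 0.00572) and 0.58 ± 0.218 above monocytes (adjusted p = 0.0331), and skin 1.43 ± 0.240 above monocytes (adjusted p = 1.91e-05) and 0.84 ± 0.251 above blood (adjusted p = 0.00615). H2-D1 in blood against neutrophils did not pass with DESeq2 or RLE factors (-0.35 each, adjusted p = 0.0877 and 0.149). Per kb of transcript, H2-K1 led the 9 genes in blood (1000 ± 209 CPM per kb, beside 893 ± 131 for H2-D1, with overlap) and H2-D1 led in neutrophils, monocytes and skin, while Nlrc5 was the lowest in every tissue.

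**Figure D5:**
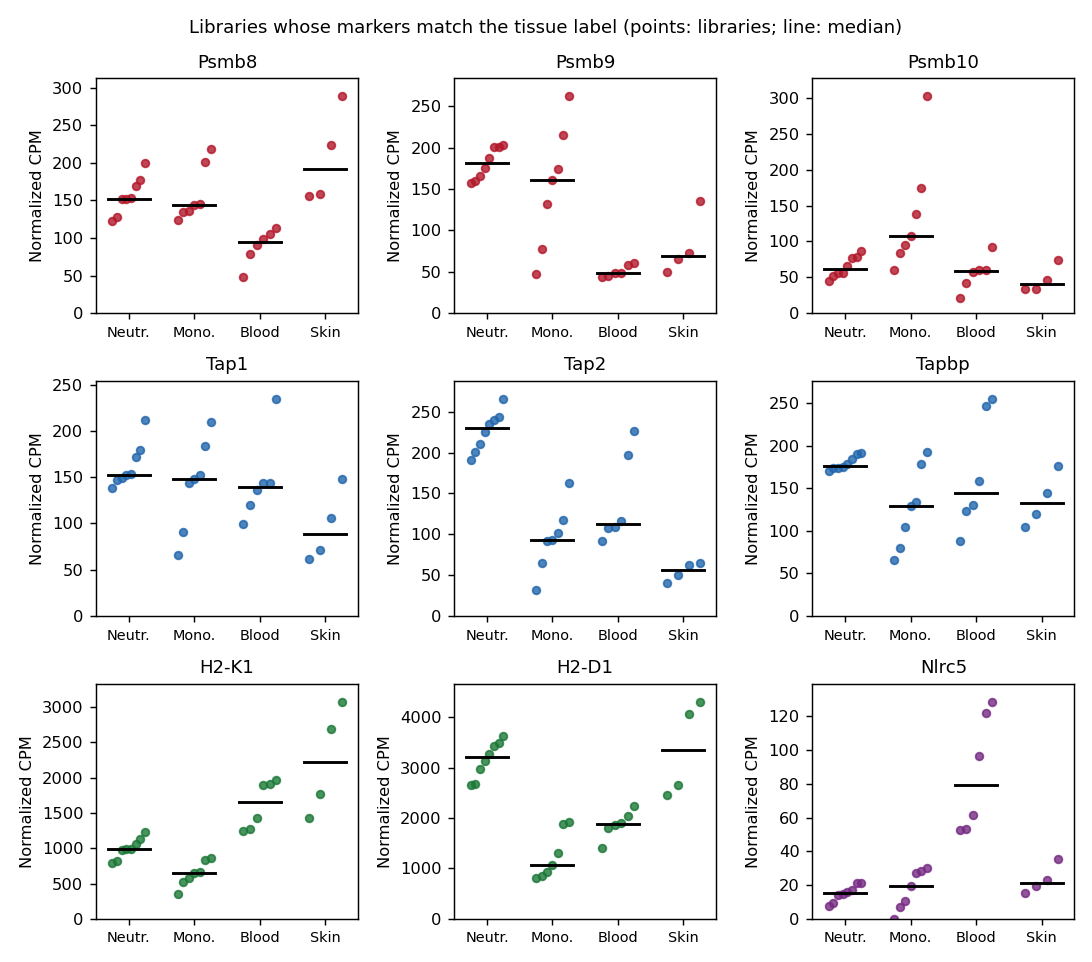
Normalized CPM (vertical axis, from 0) of each of the 9 genes in the 8 neutrophil, 7 monocyte, 6 blood and 4 skin libraries whose markers matched their label; points are libraries and bars are medians. With haemoglobin genes left out, blood stands above the rest for Nlrc5 and below it for Psmb8, and skin has the lowest median for Tap2.

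Counted over 18715 genes tested, 1 member was higher and 3 were lower in monocytes against neutrophils, where 26.4% of all genes passed (11.0% higher and 15.4% lower). Blood against neutrophils had 2 members higher and 4 lower (43.7%, as 20.5% and 23.2%), and skin against neutrophils 1 higher and 3 lower (59.4%, as 33.0% and 26.5%). Against monocytes, 3 members were higher and 3 lower in blood (42.5%, as 21.1% and 21.3%) and 2 higher and 3 lower in skin (52.4%, as 30.2% and 22.1%). Skin against blood had 2 higher and 2 lower (53.0%, as 30.8% and 22.2%). The groups did not overlap for 2, 5, 3, 3, 2 and 4 of the 9 genes in the order monocytes, blood and skin against neutrophils, blood and skin against monocytes, and skin against blood, beside 10.5, 33.8, 61.7, 19.4, 35.9 and 51.3% of all genes. The shares that passed are near those of all genes, so the counts set the group apart little. Blood and skin hold many cell types. With haemoglobin counted and no TMM factors, B cell markers summed to a median of 159 CPM in blood and 6.56 in skin. They summed to 12.5 in neutrophils and 11.8 in monocytes. T and NK cell markers summed to 39.7 and 81.7 beside 11.9 and 6.92, and platelet markers to 624.8 and 168 beside 20.2 and 132. Haemoglobin held 89.2 to 93.9% of the blood counts, so these blood sums are not on the scale of the blood levels above. As shares of the RNA that is not haemoglobin they would be far higher, so their order against skin is not given. The part of these cell types in the differences was not tested. The tissue titles begin with S2, S3 or S5, which the labels do not define and which are called the title prefix here. With names as deposited it was S3 in all 6 blood and S5 in all 4 skin libraries used. Tissue and prefix can then be told apart there only through the neutrophil and monocyte libraries. Re-sorting would move 29 names, and the prefix goes with the name. The prefix of a library is therefore as uncertain as its name.

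With all 34 libraries as labelled, 0, 1, 3, 4, 4 and 0 members passed in the same 6 comparisons. H2-K1 then passed in blood and skin against neutrophils (0.66 and 1.05) and monocytes (1.17 and 1.55), whereas Nlrc5 and Tap2 in blood against neutrophils and Tap2 and H2-D1 in monocytes against neutrophils did not pass. With the title prefix as a covariate, added after the values had been seen, 2 calls were lost: H2-D1 in blood against monocytes (0.36, adjusted p = 0.222) and Nlrc5 in skin against blood (-1.33, adjusted p = 0.145), while H2-K1 in skin against blood passed (0.83, adjusted p = 0.0368). That fit holds only for the prefixes of the names as deposited. These tissue calls depended on scaling, libraries and labels to differing degrees. Of the 29 calls, 14 held under every other alternative and with each library left out: Tap2 and H2-D1 in monocytes and Psmb9 and Nlrc5 in blood against neutrophils, Tap2 and H2-K1 in skin against neutrophils, Psmb9, Psmb10, H2-K1 and Nlrc5 in blood and H2-K1 and H2-D1 in skin against monocytes, and Psmb8 and H2-D1 in skin against blood. Library totals alone ended the other 15, and other settings also ended some of them. DESeq2 and RLE factors each ended Tap2 and H2-D1 in blood and Tap1 in skin against neutrophils, and Psmb9 and Tap2 in skin against monocytes. RLE factors also ended Psmb8 in blood against neutrophils. Leaving out the filter ended Tap2 in blood and Tap1 in skin against neutrophils, and H2-D1 in blood and Tap2 in skin against monocytes. Haemoglobin kept ended Tap2 in blood against neutrophils. Other comparisons passed only under an alternative: Psmb8 was higher in skin than in neutrophils under 4 of 8 (0.51 to 0.90) and than in monocytes with DESeq2 and RLE factors (0.63 each), and Tap2 was higher in blood than in monocytes with DESeq2, RLE factors and haemoglobin kept (0.69 to 0.85). Tap1 passed as lower in skin than in blood with DESeq2 (-0.68) and than in monocytes with voom (-0.61), and Psmb9 as higher in skin than in blood on library totals alone (1.12). Leaving out 1 library added such a call in 13 instances, for Tap1, Tap2, Tapbp, Psmb9 or H2-K1. The single-library losses were Tap2 in blood against neutrophils, H2-D1 in blood against monocytes, H2-K1 in monocytes against neutrophils, Tap1 in skin against neutrophils, and Psmb9 and Tap2 in skin against monocytes. Tap2 in blood against neutrophils did not pass without blood IVIG library 1 or 5, blood PBS library 3 or 5, neutrophil IVIG library 2 or neutrophil PBS library 2 (-0.57 to -0.64). H2-D1 in blood against monocytes did not pass without blood IVIG library 4 or 5, blood PBS library 4, monocyte IVIG library 1 or 2 or monocyte PBS library 2 or 3 (0.47 to 0.56). H2-K1 in monocytes against neutrophils did not pass without monocyte PBS library 2 or 3 or neutrophil IVIG library 2 (-0.48 to -0.54), and Tap1 in skin against neutrophils and Psmb9 in skin against monocytes did not pass without skin IVIG library 1 or 2 (-0.58 and -0.63, and -0.74 and -0.83). Tap2 in skin against monocytes did not pass without skin IVIG library 1 or 2 or monocyte IVIG library 2 (-0.67, -0.75 and -0.65). Without skin IVIG library 1 or 2, 3 in place of 5 members passed in skin against monocytes.

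Ratios within the catalytic pairs differed between tissues as well (18 exact two-sided permutation tests, Benjamini-Hochberg adjusted). These ratios too were chosen with the values seen, so the p-values here and for Psmb10 below are descriptive only. The Psmb8 share of its pair per length was 56.5 ± 3.40% in blood (n = 6), 50.9 ± 6.96% in skin (n = 4), 44.998 ± 6.65% in monocytes (n = 7) and 43.1 ± 4.76% in neutrophils (n = 8). The log2 ratio to Psmb5 was higher in blood than in neutrophils by 0.78 (exact permutation p = 0.000666, adjusted 0.0120) and than in monocytes by 0.67 (exact p = 0.00350, adjusted 0.0145), although Psmb8 itself was lowest in blood. The blood ratios rest on few counts, 118 to 373 of Psmb8 and 42 to 186 of Psmb5 a library. The Psmb9 share was 52.6 ± 4.51% in neutrophils, 48.8 ± 12.1% in monocytes, 43.8 ± 6.94% in blood and 29.0 ± 6.05% in skin, and skin was below each of the others (log2 ratio to Psmb6 lower by 1.46, 1.23 and 0.94, exact permutation adjusted p = 0.0145, 0.0436 and 0.0214). Blood was below neutrophils by 0.51 (exact permutation adjusted p = 0.0373).

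The Psmb10 share was 64.6 ± 14.3% in monocytes, 62.8 ± 9.11% in blood, 41.9 ± 7.52% in neutrophils and 29.7 ± 7.09% in skin. Blood held 1.53 to 7.53 CPM of Psmb10 with haemoglobin counted, so its share rests on few counts. The log2 ratio to Psmb7 was above neutrophils in monocytes by 1.43 and in blood by 1.26 (exact permutation adjusted p = 0.0145 each), and skin was below neutrophils, monocytes and blood by 0.79, 2.23 and 2.05 (exact permutation adjusted p = 0.0463, 0.0182 and 0.0214). With all 34 libraries as labelled these ratios were smaller, at 0.50 for blood and -0.19 for skin against neutrophils and -0.69 for skin against blood, and the Psmb8 to Psmb5 ratio of blood against neutrophils was 0.36. In all 12 Ics libraries the Psmb10 share was between 4.98 and 15.8%, and in the 25 tissue libraries between 21.6 and 85.5%. Ics and tissue libraries were not tested against each other.

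IVIG against PBS was compared within each tissue over all libraries as labelled, to ask whether treatment moved the pathway. None of the 9 genes passed in any tissue, and 0 genes passed at all (0% of the 11339 tested in blood, 14033 in neutrophils, 14415 in monocytes and 16171 in skin) in edgeR. At an unadjusted p under 0.05 there were 81, 73, 286 and 157 genes in that order, and DESeq2 called 1, 0, 3 and 1 genes, none of them among the 9. The log2 changes of the 9 genes ran from -0.16 to 0.69 in blood (8 of 9 above 0), from -0.58 to 0.59 in neutrophils (2 of 9), from -0.21 to 1.20 in monocytes (8 of 9) and from -0.92 to 0.66 in skin (2 of 9), with SEs between 0.272 and 1.07. A p above the threshold with such errors does not show that the levels were equal.

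Psmb10 in monocytes had the smallest p of the 9. It held 157, 252 and 112 CPM with IVIG and 81.1, 53.6, 71.6, 95.3 and 76.5 with PBS. All 3 IVIG libraries were above all 5 PBS libraries. Groups without overlap, in either direction, were seen for 1 of the 9 genes in monocytes (1.61% of all genes) and for 0 in blood (0.0617%), neutrophils (0.0926%) and skin (3.96%). The log2 change was 1.20 ± 0.312 (unadjusted p = 0.00313, adjusted p = 1.00), and its adjusted p lay between 0.623 and 1.00 over the alternatives. The member with the smallest p was Psmb10 in neutrophils too, with the opposite sign (-0.58 ± 0.369, 25.5 CPM with IVIG and 38.8 with PBS). That value rested on PBS library 1, which held 74.1 CPM, carried blood markers and had a TMM factor of 0.0712. On library totals that library held 5.27 CPM, beside 38.3 to 83.2 in the other neutrophil PBS libraries. The log2 change was -0.21 without that library and -0.09 among libraries with matching markers. In the other tissues it was Tapbp in blood (0.43 ± 0.347, 48.4 and 35.8 CPM) and Psmb9 in skin (-0.92 ± 0.616, 18.1 and 34.3 CPM), and the adjusted p was 1.00 in all 3 tissues. Since 9 of 34 libraries carry another tissue's markers, and re-sorting the names would change the treatment of 22, these directions hold only for the names as deposited.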

How the data were processed

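The data are 46 bulk RNA libraries. Per the submitters' processing notes, reads were quantified with kallisto 0.46.1 against GRCm38. The table deposited by the authors holds estimated counts per gene symbol, named there as TPM scaled by length. How transcripts were summed to symbols is not given in the sources used here. Blank or summary rows were not present, every column was used (0 columns not used), and values were rounded to whole counts.

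Fits used edgeR 4.0.16 (R 4.3.3) with TMM factors, filterByExpr with a minimum count of 10 and the quasi-likelihood test, Benjamini-Hochberg adjusted over all genes tested with a threshold of 0.05. The 12 Ics libraries formed 1 fit, the 25 tissue libraries with matching markers formed another without haemoglobin genes, and IVIG was fitted per tissue on all labelled libraries. The limits of the marker check were chosen with the values known. CPM values were computed here from the deposited counts. Other genes were named by a rule, for each Ics time against 0 h. They were the up to 4 genes per list with the smallest p, whether or not they passed. Only genes with a mean of 5 CPM or more in the higher group were eligible. A gene that this rule names is not reported here. For likeness, the 5 genes with the highest r over the 12 Ics libraries were named for Nlrc5, Psmb8 and H2-K1. The 9 genes, the lists and the rules were chosen with earlier results of these data known.

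Alternatives were DESeq2 1.42.0, voom in limma 3.58.1, RLE factors, library totals alone, no filter, a replicate block, covariates, the labels as given and each library left out. Ratios of subunits and the covariate for the undefined prefix of the titles (S2, S3 or S5) were added after seeing the data. Each of 77 pairs of libraries within a group differed by more than counting noise. The edgeR fits were tested on simulated counts. The other steps ran in Python 3.11.15 with pandas 2.3.3 and SciPy 1.17.1 and had no such test.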

Additional observations from a re-analysis of the deposited data

Results flagged for a closer look

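Of 89 groups of 4 to 8 libraries examined for a single library far from the rest, 3 had one, and chance alone gives such a library in about 5% of groups. Tap1 stood at 235 CPM in blood IVIG library 1, while the other 5 blood libraries with matching markers lay between 99.9 and 144. In the same library the log2 ratio of Psmb9 to Psmb6 was 1.18, while the others lay between 0.106 and 0.434. Psmb10 stood at 74.1 CPM in neutrophil PBS library 1, whose markers are those of blood (haemoglobin genes 96.3% of its counts), while the other 4 neutrophil PBS libraries lay between 20.1 and 35.3. The TMM factor of that library was 0.0712, beside 1.91 to 2.36 in the other 4. On library totals the order was reversed: it held 5.27 CPM of Psmb10 and the other 4 held 38.3 to 83.2.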

How the results depend on the processing

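In the Ics libraries 20 of 24 member calls passed under every alternative and every left-out library. Numbers of genes called without 1 library ran from 7690 to 8223 at 3 h, from 8511 to 9220 at 6 h and from 5526 to 6136 from 3 to 6 h. Deviations from the time means correlated by m number. The correlations were 0.0723 to 0.224 for 12 same-number pairs and -0.137 to 0.0316 for 36 other-number pairs. The main Ics fits and the ratio tests did not use the m numbers and treated the libraries as independent. With the replicate block 8297, 9151 and 6354 genes and 9, 8 and 7 members passed, and no member call changed. Signs that turned among the genes named belonged to changes that had not passed. Tap2 at 6 h was 0.023 with DESeq2 and with RLE factors, 0.027 without a filter, -0.17 on library totals alone (adjusted p = 0.0326, a call) and -0.035 to 0.049 without 1 library, and Psmb10 from 3 to 6 h was -0.18 to 0.055. On library totals alone Psmb6 and Psmb1 at 3 h were -0.11 and -0.15 and Psme3 at 6 h -0.032. The cause of these shifts was not tested.

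Between tissues, DESeq2 and RLE factors gave Psmb10, Tap1 and Tapbp in blood against neutrophils as 0.17, 0.26 and 0.29, and RLE called 3 members there. Library totals alone called 2 members each in monocytes and in blood against neutrophils and in skin against monocytes, and 2817 genes in the first. They turned Psmb10 and Tapbp in skin against neutrophils (0.015 and 0.10) and against blood (0.22 and 0.20). With all 34 libraries as labelled, genes called were 1299 in monocytes, 4593 in blood and 7290 in skin against neutrophils and 2 in skin against blood, with 0, 1, 3 and 0 members. Signs turned there for Psmb9 (0.11) and Nlrc5 (-0.82) in monocytes, Tapbp in blood (0.053), Tap1 and Tapbp in skin (0.034 and 0.26), all against neutrophils, for Tap1 in blood and skin against monocytes (-0.086 and 0.040), for Psmb9, Tap1 and Tapbp in skin against blood (-0.23, 0.13 and 0.21) and for the log2 ratio of Psmb8 to Psmb5 in monocytes against neutrophils (-0.17). Further turns were Tapbp in blood against neutrophils with haemoglobin kept (0.029), Tap1 in blood against monocytes without a filter (-0.021), Psmb8 in monocytes against neutrophils with treatment as a covariate (-0.0038) and Tapbp in skin against blood with the title prefix as a covariate (0.10). Without 1 library the ranges were -0.27 to 0.063 for Tapbp in blood and -0.087 to 0.13 for Psmb8 in monocytes, and -0.043 to 0.23 for H2-D1 in skin, against neutrophils. Against monocytes they were -0.17 to 0.13 for Tap1 in blood, -0.032 to 0.24 for Tapbp in skin, 3 to 6 members called in skin, and -0.40 to 0.094 for the log2 ratio of Psmb10 to Psmb7 in blood.

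For IVIG against PBS, DESeq2 called 1 gene in blood, 3 in monocytes and 1 in skin, library totals alone 1 in monocytes, and libraries with matching markers 5 in blood and 4 in skin. No member passed under 19, 18, 16 and 13 settings in blood, neutrophils, monocytes and skin. With 3 to 5 libraries a group, SEs of up to 1.07 limit what could be seen, and Psmb10 and Nlrc5 in Ics rest on few counts.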
